A study of Mus with 15 samples.

Results

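The transcripts of 9 genes of oxidative stress and antioxidant defence were followed in the abdominal aorta of 15 mice. They were taken by identifier, 1 Ensembl transcript per gene: Cybb, Sod1, Sod2, Sod3, Cat, Hmox1, Nqo1, Gpx1 and Gpx3. All 9 were listed in every file, among 108027 Ensembl transcripts that the files shared. The study used male wild-type C57BL/6 mice of 8 to 10 weeks. The 5 Control mice were infused with saline for 14 days. The 5 AngII mice were infused with Angiotensin-II by osmotic pump for the same time, at 500 ng/kg/min in the treatment label, although the descriptions of these mice read 500 to 504 ng/kg/min. The 5 AngII+QDG mice were infused with Angiotensin-II at 500 ng/kg/min and were also given QDG (Qingda granule, a herbal formula for hypertension) at 1.145 g/kg/d by gavage, while the other mice were given water.

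Superoxide is formed in the vessel wall by NADPH oxidases, and Cybb encodes the membrane-bound catalytic subunit of the phagocyte enzyme, also called NOX2. Superoxide dismutases turn superoxide into hydrogen peroxide, in the cytosol (Sod1), in mitochondria (Sod2) and outside the cell (Sod3, which is made by vascular smooth muscle cells). Catalase (Cat) and the glutathione peroxidases (cytosolic Gpx1 and secreted Gpx3) break hydrogen peroxide down. Hmox1 encodes heme oxygenase 1, which degrades heme, and Nqo1 a quinone reductase, and both genes are classical targets of the transcription factor NRF2. Angiotensin II is a well known stimulus of NADPH oxidases in the vessel, and the question put to these transcripts was whether their levels differed with AngII infusion and with QDG.

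The values are FPKM, read fragments scaled to transcript length and to the mapped fragments of the library, so that levels can be compared between transcripts. Absolute depth is unknown. Summed FPKM ranged from 454587 to 547311 per mouse. The Control and AngII mice had been quantified on a list of 126719 transcripts and the AngII+QDG mice on another of 125443 transcripts, so that list and treatment cannot be told apart in any AngII+QDG difference below. Differences were fitted with limma on log2(FPKM + 1) across all transcripts that reached 1 FPKM in at least 5 of the 10 mice compared. Every log2 fold change given is one of log2(FPKM + 1) and is smaller than that of the FPKM itself where levels are low. All 9 transcripts passed this filter in every comparison. The AngII+QDG comparisons share their AngII+QDG mice, and the other pairs of comparisons share the AngII or the Control mice.

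In the mm10 genome (GRCm38.p6 in the RefSeq annotation), the genes named lie at chrX:9435252-9487766 (Cybb), chr16:90220762-90226333 (Sod1), chr17:13007839-13018119 (Sod2), chr5:52363804-52369738 (Sod3), chr2:103453904-103485153 (Cat), chr8:75093618-75100593 (Hmox1), chr8:107388225-107403205 (Nqo1), chr9:108339080-108340342 (Gpx1) and chr11:54902854-54910387 (Gpx3). These spans cover the whole gene, exons and introns included. The transcripts are ENSMUST00000015484 for Cybb, ENSMUST00000023707 for Sod1, ENSMUST00000007012 for Sod2, ENSMUST00000101208 for Sod3, ENSMUST00000028610 for Cat, ENSMUST00000005548 for Hmox1, ENSMUST00000003947 for Nqo1, ENSMUST00000082429 for Gpx1 and ENSMUST00000082430 for Gpx3.

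Sod1 was the highest of the 9 transcripts, with a mean of 476 FPKM over the 15 mice, and Nqo1 the lowest, with 5.84 FPKM. Between them stood Gpx1 (251), Gpx3 (192), Cat (166), Sod3 (102), Hmox1 (66.9), Sod2 (46.2) and Cybb (14.7 FPKM). The mean of Hmox1 rested on mouse 4048, without which it was 33.0 FPKM, below the 45.7 FPKM of Sod2 in the same 14 mice, and its median over 15 mice was 21.6 FPKM against 56.7 FPKM for Sod2. Sod1 exceeded Gpx1 in 15 of 15 mice without overlap of their ranges. The ranges of all other neighbours in this order overlapped. The order held in 14 of 15 mice for Cybb over Nqo1, 13 for Sod3 over Hmox1, 12 for Cat over Sod3, 11 for Sod2 over Cybb and 10 for Gpx1 over Gpx3. It held in only 8 for Gpx3 over Cat and in 7 for Hmox1 over Sod2, so that these neighbours did not differ beyond their spread. By mean FPKM, Sod1 stood above 99.6% of 23914 shared Ensembl transcripts, Gpx1 above 99.1%, Cybb above 82.9% and Nqo1 above 64.5%. These 23914 transcripts, used below as well, are those that reached 1 FPKM in at least 5 of the 15 mice.

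**Figure D1:**
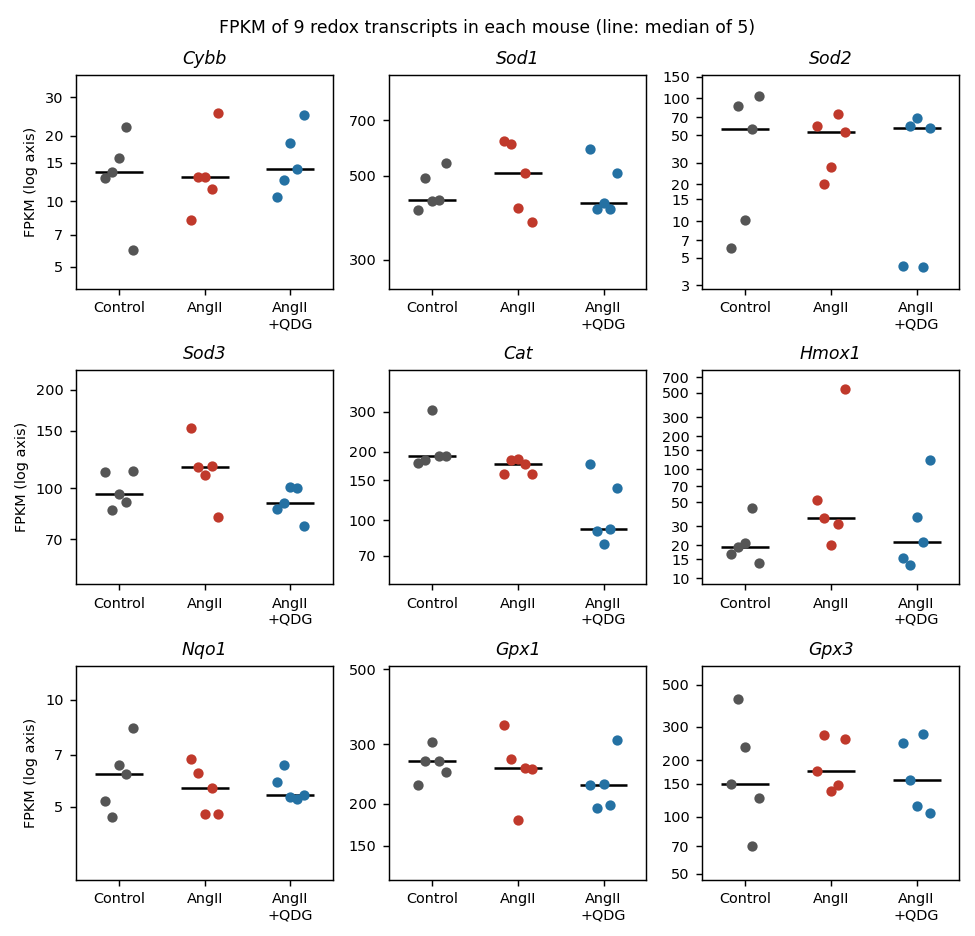
FPKM of each transcript (log axis, scaled separately in each panel) in the 5 mice of each group, with a line at the group's median. Cat was 78.9 to 91.5 FPKM in 3 of the 5 AngII+QDG mice and at least 139 in all other mice, while single mice stand far above their groups for Hmox1, up to 541 FPKM.

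Cybb was close to equal in the 3 groups. In the Control mice it was 12.7, 13.6, 15.8, 21.98 and 5.95 FPKM. In the AngII mice it was 8.23, 12.9, 12.9, 11.4 and 25.4 FPKM, and in the AngII+QDG mice 10.4, 12.5, 18.4, 14.0 and 24.9 FPKM. The groups overlapped almost entirely, and the highest mouse of each group (3971, 4048 and 3985) lay above all others of its group. The log2 fold change was 0.02 for AngII vs. Control (95% interval -0.75 to 0.79, limma adjusted p = 1.00, exact permutation test p = 0.960). AngII+QDG and AngII mice differed by 0.20 (-0.46 to 0.86, limma adjusted p = 0.993, exact permutation test p = 0.579). Single mice moved both values. The AngII vs. Control value turned to -0.23 without mouse 3994 and to -0.20 without mouse 4048 and was 0.20 without mouse 3971, while the AngII+QDG vs. AngII value was 0.035 without mouse 3985, 0.045 without mouse 3988 and 0.42 without mouse 4048. Since Cybb is expressed by phagocytes, a bulk value mixes their number and their RNA, and fewer cells and less RNA per cell cannot be told apart for this or any other transcript here.

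Of the superoxide dismutases, Sod1 made up most of the signal and varied little. It was 404, 493, 429, 430.2 and 538 FPKM in the Control mice. It was 615, 604, 409.6, 509 and 378 FPKM in the AngII mice, and 588, 408, 423, 407 and 509 FPKM in the AngII+QDG mice. The AngII group held both the highest and the lowest of the 15 mice. The log2 fold change was 0.11 for AngII vs. Control (95% interval -0.26 to 0.49, limma adjusted p = 0.995, exact permutation test p = 0.476). AngII+QDG and AngII mice differed by -0.10 (-0.50 to 0.31, limma adjusted p = 0.996, exact permutation test p = 0.619), and by -0.25 after upper-quartile scaling. With single mice left out, the Sod1 values ran from 0.033 (without mouse 3988) to 0.21 (without mouse 4048) for AngII vs. Control and from -0.19 (without mouse 4048) to -0.016 (without mouse 3988) for AngII+QDG vs. AngII.

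Sod3, the extracellular enzyme, had its highest value in an AngII mouse, and the AngII mice were mostly above the AngII+QDG mice. It was 112, 85.8, 96.3, 90.7 and 113 FPKM in the Control mice. It was 153, 116, 109.7, 117 and 82.0 FPKM in the AngII mice, and 86.4, 90.2, 101, 99.9 and 76.5 FPKM in the AngII+QDG mice. Of the AngII mice, 3 lay above every Control mouse and mouse 4048 lay below all of them. Means of Sod3 were 115 ± 25.4 FPKM with AngII and 90.8 ± 10.2 FPKM with AngII+QDG (SD, n = 5 each), a log2 fold change of -0.32 (95% interval -0.68 to 0.04). This difference did not pass the test (limma adjusted p = 0.716, exact permutation test p = 0.0794). Without mouse 4048 it was -0.44 (limma adjusted p = 0.283), and without mouse 3988, the highest, it was -0.22 (limma adjusted p = 0.988). For AngII vs. Control the log2 fold change was 0.19 (-0.18 to 0.56, limma adjusted p = 0.995, exact permutation test p = 0.302), and it was 0.084 without mouse 3988 and 0.31 without mouse 4048.

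The mitochondrial Sod2 varied far more between mice of a group than between groups. In the Control mice it was 6.06, 86.6, 10.3, 56.7 and 104 FPKM. In the AngII mice it was 59.9, 20.1, 27.4, 74.2 and 52.9 FPKM, and in the AngII+QDG mice 4.32, 59.5, 69.4, 4.22 and 57.3 FPKM. Low and high mice stood apart within the groups: 4 mice lay between 4.22 and 10.3 FPKM (2 Control and 2 AngII+QDG mice), 2 AngII mice at 20.1 and 27.4, and the remaining 9 between 52.9 and 104 FPKM. The log2 fold change was 0.36 for AngII vs. Control (95% interval -1.37 to 2.09) and -0.89 for AngII+QDG vs. AngII (-2.74 to 0.97), with limma adjusted p-values of 0.995 and 0.965 and exact permutation p-values of 0.683 and 0.373. The sign of the AngII vs. Control value depended on the scale, since mean FPKM was 46.9 in AngII mice and 52.8 in Control mice, and the medians were 52.9 and 56.7. Leaving out Control mouse 3996 or 4086 turned it to -0.20 or -0.03, and without single mice it reached 0.77. The AngII+QDG vs. AngII value was -0.35 without mouse 3981 or mouse 3984 and -1.28 without mouse 3983. The value is that of 1 transcript. Other transcripts of Sod2 were not identified here, so the level of the whole gene is not given.

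The make-up of the dismutase signal in each mouse does not depend on how the library was scaled. Sod1 was 71.2% to 80.1% of the summed FPKM of the 3 dismutases in the Control mice, 72.7% to 81.6% in the AngII mice and 71.3% to 86.6% in the AngII+QDG mice. Sod3 contributed medians of 15.7%, 16.7% and 16.2%, and Sod2 from 0.637% to 13.8% over all mice. The groups overlapped in all 3 shares.

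**Figure D2:**
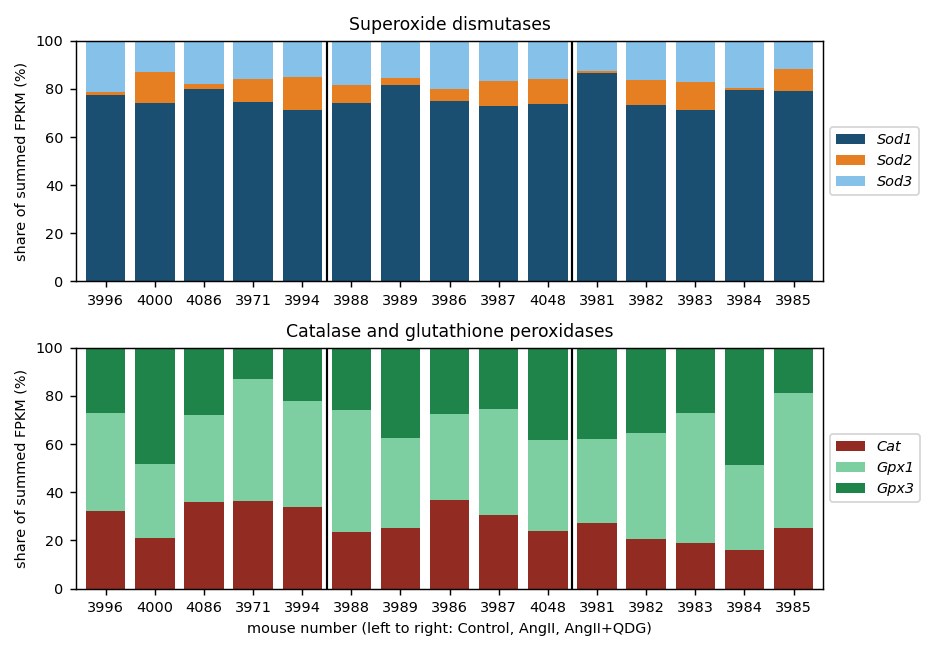
Share (%) of each transcript in the summed FPKM of the superoxide dismutases (top) and of catalase and the glutathione peroxidases (bottom), 1 bar per mouse, with lines between the groups. Sod1 is over 71% in every mouse, the Sod2 share comes and goes within each group, and the Cat share is lowest, at 16.2% to 20.5%, in 3 AngII+QDG mice.

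Among the enzymes that remove hydrogen peroxide, Cat was the transcript with the most separated groups. It was 178, 184, 304, 192 and 191 FPKM in the Control mice. It was 159, 183, 185, 177 and 160.2 FPKM in the AngII mice, and 177, 89.96, 78.9, 91.5 and 139 FPKM in the AngII+QDG mice. Every AngII+QDG mouse lay below every Control mouse, and 4 of the 5 lay below every AngII mouse, with mouse 3981 at 177 FPKM within the AngII range. The means were 209.9 ± 52.7 FPKM in Control mice, 173 ± 12.6 FPKM in AngII mice and 115 ± 41.5 FPKM in AngII+QDG mice (mean ± SD, n = 5 each).

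For AngII+QDG vs. AngII, the log2 fold change of Cat was -0.65 (95% interval -1.12 to -0.18), which is 0.638-fold. Its unadjusted limma p was 0.0119, and after adjustment over 21081 transcripts the difference did not pass (limma adjusted p = 0.315, exact permutation test p = 0.0238). For AngII+QDG vs. Control, the log2 fold change was -0.90 (-1.44 to -0.36), or 0.537-fold, with an unadjusted limma p of 0.00397 (limma adjusted p = 0.148, exact permutation test p = 0.00794, the smallest that 5 mice against 5 allow). With all 3 groups in 1 fit this last difference had a limma adjusted p of 0.0410, the only call among all fits of the 9 transcripts, where 1.89% of all transcripts in that fit were called, and over all alternatives its adjusted p ranged from 0.0410 to 0.337. For AngII vs. Control, the log2 fold change was -0.25 (-0.60 to 0.10, limma adjusted p = 0.995, exact permutation test p = 0.0476). Mouse 4086, at 304 FPKM, weighed on this last value, which was -0.11 without it. Without mouse 4086 the AngII+QDG vs. Control value was -0.76.

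Gpx1 and Gpx3 passed the test in no comparison. Gpx1, the cytosolic peroxidase, was 226, 268, 304, 268 and 248 FPKM in the Control mice. It was 342, 271, 179, 255 and 253 FPKM in the AngII mice, and 227, 194, 229, 199 and 309.6 FPKM in the AngII+QDG mice. The groups overlapped, and the log2 fold change was -0.04 for AngII vs. Control (95% interval -0.41 to 0.34, limma adjusted p = 0.998) and -0.16 for AngII+QDG vs. AngII (-0.57 to 0.26, limma adjusted p = 0.982). The exact permutation p-values were 0.865 and 0.421. For Gpx1, AngII vs. Control turned to 0.088 without mouse 3986 and to 0.014 without mouse 4086 and was -0.15 without mouse 3988, and the AngII+QDG vs. AngII value ran from -0.28 (without mouse 3986) to -0.050 (without mouse 3988).

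Gpx3, the secreted enzyme, spread widely, above all in the Control mice. It was 149, 422, 235, 69.7 and 126 FPKM there. It was 175, 272, 137, 148 and 258 FPKM in the AngII mice, and 245, 156, 113, 276 and 105 FPKM in the AngII+QDG mice. The Control group alone spanned 6.05-fold and covered all other mice. The log2 fold change was 0.19 for AngII vs. Control (95% interval -0.77 to 1.15, limma adjusted p = 0.996, exact permutation test p = 0.722), an interval that runs from 0.585-fold to 2.22-fold. Mean FPKM was 198 in AngII and 200.1 in Control mice, so that here too the sign depended on the log scale. Its value for AngII+QDG vs. AngII was -0.20 (-0.90 to 0.51, limma adjusted p = 0.996, exact permutation test p = 0.587). With single mice left out, the Gpx3 values ran from -0.12 (without mouse 3971) to 0.52 (without mouse 4000) for AngII vs. Control and from -0.38 (without mouse 3984) to -0.033 (without mouse 3985) for AngII+QDG vs. AngII.

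As a share of the summed FPKM of Cat, Gpx1 and Gpx3, a measure free of the scaling of each library, Cat made up 21.1% to 36.3% in the Control mice (median 33.8%), 23.6% to 37.0% in the AngII mice (median 25.2%) and 16.2% to 27.2% in the AngII+QDG mice (median 20.5%). The Gpx1 share had medians of 41.0%, 37.7% and 44.1%, and the Gpx3 share of 26.9%, 27.4% and 35.5%. The ranges of all 3 groups overlapped in each share, and no test was made of them.

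Hmox1 showed the largest log2 fold change of the 9 transcripts between AngII and Control mice, and it rested largely on 1 mouse. It was 16.6, 19.6, 20.9, 44.4 and 13.9 FPKM in the Control mice. It was 51.8, 35.5, 20.3, 31.4 and 541 FPKM in the AngII mice, and 15.3, 13.3, 36.3, 21.6 and 122 FPKM in the AngII+QDG mice. Each group had 1 mouse far above its other 4: mouse 3971 in the Control group, mouse 4048 in the AngII group and mouse 3985 in the AngII+QDG group. The group medians were 19.6, 35.5 and 21.6 FPKM.

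For AngII vs. Control, the log2 fold change of Hmox1 was 1.41 (95% interval -0.32 to 3.14), which did not pass the test (limma adjusted p = 0.995, exact permutation test p = 0.0873). Without mouse 4048 it was 0.61 (limma adjusted p = 0.998). For AngII+QDG vs. AngII it was -0.98 (-2.95 to 0.99, limma adjusted p = 0.960, exact permutation test p = 0.429). That value was -0.18 without mouse 4048, -1.49 without mouse 3985 and -0.69 without both. AngII+QDG and Control mice differed by 0.43 (-0.81 to 1.68, limma adjusted p = 0.945), and -0.08 without mouse 3985. Mice 4048 and 3985 also stood apart over the transcriptome: they lay above the other 4 mice of their group, by a gap of over 0.71 of the group's range, in 3.37% and 4.34% of 23914 transcripts, against 0.966% to 2.15% in the other 13 mice. Whether what sets these mice apart bears on Hmox1 was not tested.

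Nqo1, the other classical NRF2 target, did not show these peaks. It was 5.20, 4.68, 6.58, 6.19 and 8.33 FPKM in the Control mice. It was 6.81, 6.21, 4.77, 5.65 and 4.78 FPKM in the AngII mice, and 5.88, 6.57, 5.34, 5.26 and 5.39 FPKM in the AngII+QDG mice. Mouse 4048, with the highest Hmox1, had the second lowest Nqo1 of the AngII group. The log2 fold change was -0.10 for AngII vs. Control (95% interval -0.48 to 0.27, limma adjusted p = 0.995, exact permutation test p = 0.516) and 0.02 for AngII+QDG vs. AngII (-0.28 to 0.32, limma adjusted p = 0.999, exact permutation test p = 0.857). With single mice left out, these Nqo1 values ran from -0.18 (without mouse 4000) to -0.0054 (without mouse 3994) and from -0.032 (without mouse 3986) to 0.077 (without mouse 3988). The intervals of Nqo1 with all mice reach at most from 0.717-fold to 1.25-fold of FPKM + 1 in these comparisons, a scale that shrinks differences at this low level.

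**Figure D3:**
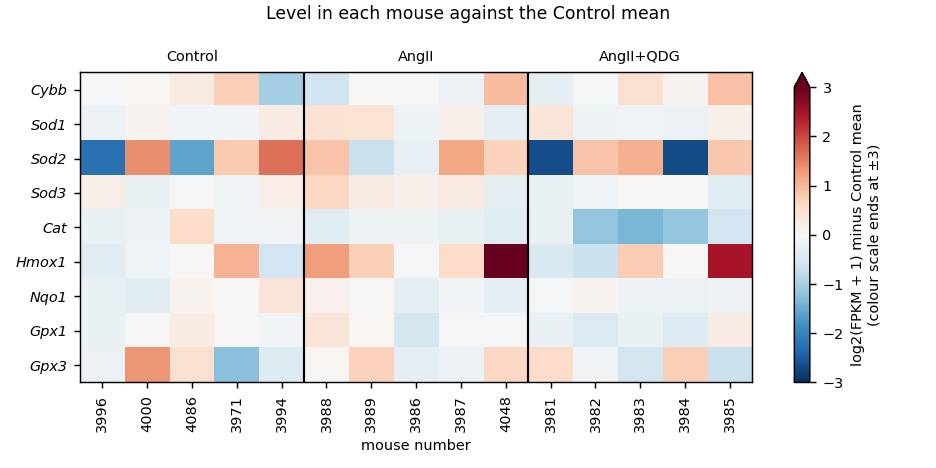
log2(FPKM + 1) of each transcript in each mouse minus the mean of the 5 Control mice, with the groups parted by lines and the colour scale ending at 3 in either direction. The Sod2 row switches between low and high mice in the Control and AngII+QDG groups, the Hmox1 row is highest in mice 4048 (541 FPKM) and 3985 (122 FPKM), and the Cat row is lowest in mice 3982, 3983 and 3984.

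Taking the 9 transcripts as a list, AngII vs. Control had 0 with a limma adjusted p below 0.05 (0.00732% of 27327 transcripts tested were called), 0 with an unadjusted limma p below 0.05 (4.75% of all tested) and 1, Cat, with an exact permutation p below 0.05 (4.54% of all tested). AngII+QDG vs. AngII had 0 with a limma adjusted p below 0.05 (1.73% of 21081 tested), 1 with an unadjusted limma p below 0.05 (7.86%) and 1 with an exact permutation p below 0.05 (7.48%), Cat in both. AngII+QDG vs. Control had 0 with a limma adjusted p below 0.05 (1.81% of 21250 tested), 1 with an unadjusted limma p below 0.05 (8.98%) and 1 with an exact permutation p below 0.05 (8.74%), again Cat in both. A fold change of 2 with an unadjusted p below 0.05 was reached by 0 of the 9 in all 3 comparisons, and by 1.5%, 3.53% and 3.64% of all transcripts tested. Groups did not overlap for 0 of the 9 in AngII vs. Control (0.732% of all tested), 0 in AngII+QDG vs. AngII (2.86%) and 1, Cat, in AngII+QDG vs. Control (3.24%). Some of these counts turned on 1 mouse. Without mouse 4048, the comparison of AngII+QDG and AngII mice had Sod3 beside Cat at an unadjusted limma p below 0.05 (8.82% of all tested in that fit), and without mouse 3985, AngII+QDG vs. Control had Gpx1 beside it (8.44%). Without mouse 3981, Cat passed a fold change of 2 in AngII+QDG vs. Control, at -1.07 on the log2 scale (3.38% of all tested passed the fold and p in that fit).

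Apart from Cat, the log2 fold changes of AngII+QDG vs. Control ran from -0.52 (Sod2) to 0.43 (Hmox1), with limma adjusted p-values from 0.848 (Gpx1) to 0.999 (Gpx3) and exact permutation p-values from 0.206 (Gpx1) to 0.976 (Gpx3). The directions were mixed. In AngII vs. Control, 6 of the 9 values were positive (Sod2 and Gpx3 among them, whose mean FPKM was lower in AngII mice) and 3 negative, with a median of 0.11, against a median of 0.02 over all transcripts tested, of which 52.8% were positive. In AngII+QDG vs. AngII, 2 were positive and 7 negative, with a median of -0.20, against 0.00 over all tested, of which 49.4% were positive. In AngII+QDG vs. Control, 3 were positive and 6 negative, with a median of -0.09, against 0.02 over all tested, of which 53.2% were positive.

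**Figure D4:**
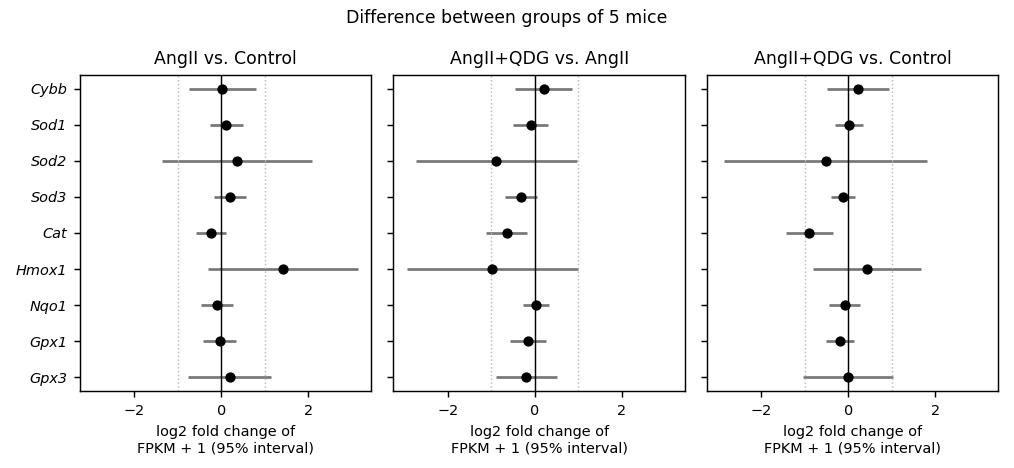
log2 fold change of FPKM + 1 (points) with its 95% interval from limma (lines) for each transcript in the 3 comparisons of 5 against 5 mice, with dotted lines at a fold change of 2. The Cat interval lies below 0 in both comparisons with AngII+QDG mice before adjustment, and the intervals of Sod2 and Hmox1 are the widest.

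The 9 transcripts differed in how much they varied between mice of the same group. The pooled SD within groups, on the log2(FPKM + 1) scale, was 1.60 for Sod2 and 1.34 for Hmox1, above 97.8% and 96.1% of 23914 transcripts. Among transcripts within 0.5 of the same mean level, Sod2 stood above 97.8% and Hmox1 above 95.9%, and the median SD was 0.30 at both levels. The SD of Gpx3, 0.72, was above that of 91.4% of transcripts of its level. Sod1 (0.25), Gpx1 (0.26), Nqo1 (0.21) and Sod3 (0.23) were above 12.2%, 15.6%, 14.2% and 26.7% of transcripts of their levels, and Cat (0.34) and Cybb (0.55) above 52.1% and 73.9%.

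**Figure D5:**
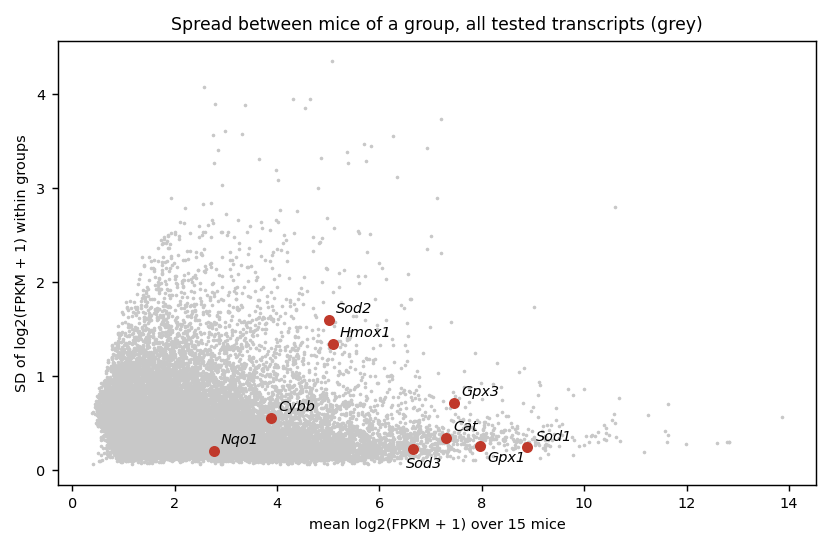
SD of log2(FPKM + 1) between mice of a group, pooled over the 3 groups, against the mean of log2(FPKM + 1) over 15 mice, for 23914 transcripts (grey) and the 9 redox transcripts (red). Sod2 (1.60) and Hmox1 (1.34) lie high above the bulk of transcripts at their level, while Nqo1, Sod3, Sod1 and Gpx1 lie low.

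Of 36 pairs of the 9 transcripts, Cybb and Hmox1 moved together most closely between mice of a group, pooled over the 3 groups. After subtraction of the group means, Pearson's r was 0.76 (permutation test, p = 0.00131, 0.0472 adjusted over the 36 pairs) and Spearman's rho 0.75 (permutation test, p = 0.00329) over 15 mice. Mouse 3971 in the Control group, mouse 4048 in the AngII group and mouse 3985 in the AngII+QDG group each had the highest value of their group for both transcripts. Of these, mice 4048 and 3985 also stood above their groups in 3.37% and 4.34% of 23914 transcripts (at most 2.15% in the other mice), and the part of this in the correlation was not tested. The Control mice had the same order in both transcripts, and the AngII+QDG mice differed in order only for mice 3981 and 3982. Within the AngII group the pair moved together only through mouse 4048. In AngII mice 3988, 3989, 3986 and 3987, Cybb was 8.23, 12.9, 12.9 and 11.4 FPKM. Hmox1 was 51.8, 35.5, 20.3 and 31.4 FPKM in these mice, the opposite way. Without mice 3994 and 4048, the farthest from the median of Cybb, r was 0.76, with the group means still taken over all 15 mice. With any single mouse left out r stayed between 0.66 and 0.84, the lowest without mouse 4048, but its adjusted p was below 0.05 only without mouse 3988 or 3986 and was 0.231 without mouse 4048. The next highest r were those of Sod1 and Gpx1 (r = 0.56, permutation test p = 0.0753, 0.353 adjusted; rho = 0.61, permutation test p = 0.0336) and Sod1 and Nqo1 (r = 0.53, permutation test p = 0.0467, 0.336 adjusted; rho = 0.56, permutation test p = 0.0396), neither of which passed adjustment. Without mice 3981 and 3988, r was 0.51 and 0.46 in these pairs, and after scaling to the shared Ensembl sum it was 0.36 in both. The lowest r was between Cybb and Sod3, at -0.72 (permutation test, p = 0.00648, 0.117 adjusted), with a rho of -0.65 (permutation test, p = 0.0153) and an r of -0.59 without mice 3994 and 4048. Among the other negative pairs, Cybb and Nqo1 had an r of -0.60 (permutation test, p = 0.0428, 0.336 adjusted), Sod3 and Hmox1 -0.61 (permutation test, p = 0.0785, 0.353 adjusted) and Cybb and Sod1 -0.55 (permutation test, p = 0.0425, 0.336 adjusted), with rho of -0.55, -0.33 and -0.44 (permutation test, p = 0.0525, 0.242 and 0.116). Without the 2 mice farthest from the median of the first transcript of each pair, these r were -0.32, -0.44 and -0.33. Every r without 2 mice used the group means of all 15 mice, so a mouse left out still shifted the others of its group. These last 3 pairs were added after their values were seen. Of the 36 pairs, 5 had an unadjusted p below 0.05 and 1 an adjusted p below 0.05.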

How the data were processed

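Total RNA of the abdominal aorta of 15 mice was depleted of rRNA and sequenced, and the study's methods also name a poly(A) mRNA isolation kit for the libraries. Reads were cleaned by the authors (NGSQC) and mapped to the mm10 genome (HISAT2), and StringTie then assembled the transcripts and gave their FPKM, as the methods of the study state. For differences between groups the study's methods name DESeq, whereas the submitters' processing notes name limma, and neither of those outputs was used here. The deposited values are FPKM per transcript and mouse, scaled by the authors for length and mapped fragments, so no test of counts was made and no counting interval can be given.

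The 9 transcripts and their gene names were given by a list. The files used here list transcript identifiers alone, so the 9 names were not checked, and pathway and cell marker lists, sums per gene and sequences were not used here, and the tissue was not checked against markers. The members and lists were chosen with earlier results of these data known.

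For each comparison its 10 mice entered a limma-trend fit (limma 3.58.1, R 4.3.3) of log2(FPKM + 1). Transcripts below 1 FPKM in more than 5 of these mice were left out, and p-values were Benjamini-Hochberg adjusted over all transcripts tested. Comparisons with AngII+QDG mice used shared Ensembl transcripts. Exact permutation tests were 2-sided, on mean log2(FPKM + 1), and 27 were made. Pairs of transcripts were tested with 100000 permutations within groups. All 9 transcripts were named, and of the pairs the 3 with the highest and the 1 with the lowest r. No label says how the animals were housed or processed in batches. The fit was run on simulated data with group differences larger than any found for the 9 transcripts. That run cannot show how the fit deals with smaller differences. Alternatives were another pseudocount, other filters, a fit of all 3 groups, other scalings and leaving out mice.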

Additional observations from a re-analysis of the deposited data

Results flagged for a closer look

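In 27 sets of 5 values (9 transcripts in 3 groups), 5 held an extreme mouse whose gap to the next was over 0.71 of the set's range, where a rate of 1 in 20 gives about 1.35. Over all 23914 transcripts in the same groups, 10.9% of the sets held such a mouse (9.29% in Control, 10.9% in AngII and 12.5% in AngII+QDG), and 3 of the 5 finds were in mice 4048 and 3985, which stood apart from their groups in more transcripts than the other mice. Hmox1 was found in all 3 groups: 541 FPKM in AngII mouse 4048 (the others 20.3 to 51.8), 122 FPKM in AngII+QDG mouse 3985 (the others 13.3 to 36.3) and 44.4 FPKM in Control mouse 3971 (the others 13.9 to 20.9). Cybb was 25.4 FPKM in AngII mouse 4048, with the others at 8.23 to 12.9. Cat was 304 FPKM in Control mouse 4086, with the others at 178 to 192.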

How the results depend on the processing

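Of 441 fold changes of the 9 transcripts under the alternatives, 410 kept their direction and their side of the threshold, 30 turned direction without passing it and 1 passed it: Cat in AngII+QDG vs. Control with all 3 groups in 1 fit (limma adjusted p = 0.0410), which made the count of calls there 1 in place of 0 (1.89% of all transcripts in that fit were called). By upper-quartile scaling, which moved the median log2 fold change of all transcripts in AngII+QDG vs. AngII from 0.00 to -0.12, Nqo1 turned to -0.11 there and Sod1 to -0.10 in AngII+QDG vs. Control, while Cat stood at -0.80 and -1.01 in these comparisons. In AngII+QDG vs. AngII it also moved Cybb from 0.20 to 0.061, Sod3 from -0.32 to -0.47, Gpx1 from -0.16 to -0.31 and Gpx3 from -0.20 to -0.35. Scaling to the shared Ensembl sum turned Cybb in AngII vs. Control to -0.018. That scaling set each mouse to a sum of 1e+06, which raised all values and so weakened the pseudocount. It also let 39156 transcripts pass the filter in this comparison, against 27327, so its changes are not those of scaling alone. Removing mice 4048 and 3985 together, chosen after seeing the data, turned Nqo1 to -0.016 and Gpx3 to 0.077 in AngII+QDG vs. AngII.

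Leaving out each mouse in turn gave ranges that crossed 0 for Cybb (-0.23 to 0.20), Sod2 (-0.20 to 0.77), Gpx1 (-0.15 to 0.088) and Gpx3 (-0.12 to 0.52) in AngII vs. Control and for Nqo1 (-0.032 to 0.077) in AngII+QDG vs. AngII. In AngII+QDG vs. Control they crossed 0 for Cybb (-0.032 to 0.40), Sod1 (-0.069 to 0.077), Sod2 (-1.09 to 0.015), Hmox1 (-0.076 to 0.70), Nqo1 (-0.17 to 0.011) and Gpx3 (-0.32 to 0.32). Cat stayed between -0.82 and -0.53 in AngII+QDG vs. AngII (limma adjusted p from 0.0640 to 0.599) and between -1.07 and -0.76 in AngII+QDG vs. Control (0.0539 to 0.333).

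At an unadjusted p below 0.05, the count in AngII+QDG vs. AngII was 2 in place of 1 with all 3 groups in 1 fit, by upper-quartile scaling and without mice 4048 and 3985 (Sod3 beside Cat), where 8.15%, 11.3% and 9.08% of all transcripts passed, and 1 to 2 when single mice were left out. In AngII+QDG vs. Control it was 2 by upper-quartile scaling (Gpx1 beside Cat, 10.2% of all transcripts) and 1 to 2 when single mice were left out. With a fold change of 2 required as well, it was 1 (Cat, 3.66% of all transcripts) by upper-quartile scaling and 0 to 1 when single mice were left out. Over all transcripts, limma adjusted calls in AngII+QDG vs. AngII were 365, against 125 without mice 4048 and 3985 and 87 where 1 FPKM was required in every mouse, and in AngII+QDG vs. Control 384 against 106 under that last filter. The r of Cybb and Hmox1 was 0.70 (adjusted p = 0.0569) by upper-quartile scaling and 0.66 to 0.84 without single mice (adjusted p from 0.00468 to 0.231). Scaling to the shared Ensembl sum moved the r of Sod1 and Gpx1 from 0.56 to 0.36, of Sod1 and Nqo1 from 0.53 to 0.36 and of Cybb and Sod3 from -0.72 to -0.55, none past the adjusted threshold before or after.

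The alternative of summing all annotated transcripts of a gene was not run, as transcripts were not paired with genes. With 5 mice a group, the spread of Sod2 and Hmox1 leaves 95% intervals of -2.74 to 0.97 and -2.95 to 0.99 in AngII+QDG vs. AngII. Absolute depth is unknown, and the labels do not say how the mice were processed in batches. No paired analysis was possible because each mouse number occurs in 1 group.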
